A study of Homo sapiens with 6 samples.

Results

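Carriers that move amino acids and neurotransmitters across membranes were compared between A2780, a human ovarian cancer cell line sensitive to doxorubicin, and A2780-ADR, its derivative that resists this drug. The genes were picked by a rule on their names, which was set with earlier results of these data known. They are the protein-coding rows of the normalized count table whose symbols start with SLC1A, SLC3A, SLC6A, SLC7A, SLC36A, SLC38A or SLC43A. This rule found 60 of the 58051 rows, namely 7 genes of the SLC1 family, 2 of SLC3, 19 of SLC6, 14 of SLC7, 4 of SLC36, 11 of SLC38 and 3 of SLC43. Of these, 59 encode carriers or carrier subunits, and SLC7A6OS shares the prefix because it lies opposite SLC7A6. RNA was sequenced from 3 samples of each line, all of them untreated and grown in the same serum-supplemented medium. Each group is 1 cell line, so a difference between the groups cannot be told apart from any other difference that the lines acquired in culture. The samples are described as independent, and nothing says whether they were separate cultures, so the p-values rest on a spread among samples that may be technical.

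A cell takes up amino acids through carriers of several designs. Exchangers such as SLC7A5 and SLC1A5 trade one amino acid for another, carriers coupled to sodium such as those of the SLC38 and SLC6 families concentrate amino acids or transmitters inside the cell, and others, such as SLC43A1, only equalise the levels on both sides. Several SLC7 carriers reach the surface only as light chains bound to a heavy chain, which is SLC3A2 (4F2hc) for most of them and SLC3A1 (rBAT) for a few. Many carrier genes are known targets of ATF4, the transcription factor that cells make more of when amino acids run short, and cancer cells depend on SLC7A5, SLC1A5 and SLC7A11 for leucine, glutamine and cystine.

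Promoter windows are shown for the carriers with the highest levels per length that differed between the lines, and for SLC1A4, because the ATF4 composite element is the sequence by which ATF4 binds its target genes. RefSeq (GRCh38.p14) gave windows that run from 250 bases before to 50 bases after a transcription start for 45 of the 60 genes, 67 windows in all. They were searched on both strands for the letters TGATGNAA, which 6 of the 67 windows held, beside 3.62% of all 35116 windows of the same length in the table. The 6 genes with a match were SLC1A3, SLC1A4, SLC1A5, SLC3A2, SLC7A1 and SLC38A1. In the windows below, written 5′ to 3′ along the gene's strand, capitals mark a match on either strand. The SLC1A4 window is chr2:64989149-64989448 on the plus strand, 1 of 2 for the gene, and its match begins 7 bases before the start. The SLC1A5 window is chr19:46784765-46785064 on the minus strand, 1 of 3 for the gene, with a match that begins 97 bases before the start. The SLC3A2 window is chr11:62881449-62881748 on the plus strand, 1 of 3 for the gene, and its match begins 37 bases after the start. The SLC7A1 window is chr13:29595639-29595938 on the minus strand, with a match from 7 bases after the start. The windows of SLC7A5, chr16:87869458-87869757 on the minus strand, and of SLC38A2, chr12:46372724-46373023 on the minus strand, held no match. Other windows of SLC1A4, SLC1A5 and SLC3A2 held none, among them that at the 5′ end of SLC1A5 (chr19:46788545-46788844). SLC43A1 and SLC6A9 also differed, at higher levels per length than SLC1A4 in A2780, and their windows, not shown, held no match. Matches are thus more frequent in the windows shown than in the 67.
SLC1A4: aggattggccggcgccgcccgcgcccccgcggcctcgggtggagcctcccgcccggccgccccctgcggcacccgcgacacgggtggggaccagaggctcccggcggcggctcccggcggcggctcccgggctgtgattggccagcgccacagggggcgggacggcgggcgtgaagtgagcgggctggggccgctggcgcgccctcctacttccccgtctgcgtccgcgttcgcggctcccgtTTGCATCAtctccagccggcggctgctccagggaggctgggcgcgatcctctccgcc
SLC1A5: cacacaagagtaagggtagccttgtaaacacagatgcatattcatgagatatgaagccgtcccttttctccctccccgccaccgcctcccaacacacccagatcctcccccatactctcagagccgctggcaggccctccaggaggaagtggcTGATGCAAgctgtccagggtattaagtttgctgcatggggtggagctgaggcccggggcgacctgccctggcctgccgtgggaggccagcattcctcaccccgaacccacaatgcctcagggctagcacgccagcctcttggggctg
SLC3A2: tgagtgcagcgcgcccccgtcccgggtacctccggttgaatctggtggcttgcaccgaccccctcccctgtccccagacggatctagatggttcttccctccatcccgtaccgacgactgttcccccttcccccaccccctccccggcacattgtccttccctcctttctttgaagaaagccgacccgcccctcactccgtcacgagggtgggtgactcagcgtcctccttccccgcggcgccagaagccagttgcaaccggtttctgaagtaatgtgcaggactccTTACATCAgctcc
SLC7A1: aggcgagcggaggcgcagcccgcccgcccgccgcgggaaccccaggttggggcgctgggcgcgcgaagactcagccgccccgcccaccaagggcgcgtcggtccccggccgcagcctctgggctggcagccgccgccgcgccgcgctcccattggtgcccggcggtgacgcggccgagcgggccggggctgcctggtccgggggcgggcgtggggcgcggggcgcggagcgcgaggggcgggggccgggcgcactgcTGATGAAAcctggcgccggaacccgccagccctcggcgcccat
SLC7A5: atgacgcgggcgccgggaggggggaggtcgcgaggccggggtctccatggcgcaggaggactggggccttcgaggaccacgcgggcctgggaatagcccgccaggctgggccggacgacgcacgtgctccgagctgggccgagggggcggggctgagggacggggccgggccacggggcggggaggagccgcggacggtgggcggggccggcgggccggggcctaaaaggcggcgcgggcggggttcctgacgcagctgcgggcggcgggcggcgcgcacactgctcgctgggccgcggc
SLC38A2: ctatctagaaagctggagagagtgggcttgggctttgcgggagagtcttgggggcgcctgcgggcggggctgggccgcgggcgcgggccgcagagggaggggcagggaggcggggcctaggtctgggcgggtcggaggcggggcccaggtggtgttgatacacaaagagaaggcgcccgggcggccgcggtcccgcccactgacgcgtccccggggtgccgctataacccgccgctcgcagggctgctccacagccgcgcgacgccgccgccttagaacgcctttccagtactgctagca

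A match was present in 4 of the 11 genes that were lower in A2780-ADR by the test below and had a window, and in 0 of the 6 that were higher. Over all protein-coding genes with a window, 4.44% of those called lower and 3.40% of those called higher held one. The letters TGACNNNGC of the antioxidant response element were found in 7 of the 67 windows and in 13.3% of all windows, with the same split of 4 of 11 and 0 of 6, beside 17.9% and 17.6% of all genes called lower and higher. These 4 of 11 were SLC1A5, SLC3A2, SLC7A1 and SLC7A5. The cAMP response element TGACGTCA was found in 0 of the 67 and in 1.85% of all windows. No match of one motif overlapped a match of another. A match is a stretch of letters and does not show that a factor bound there.

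The samples held between 27775745 and 30513366 reads in genes, and ABCB1, the drug pump that marks A2780-ADR, was at 0 to 2.04 normalized counts in A2780 and at 26769 to 29512 in A2780-ADR. Of the markers of ovarian and other epithelia, KRT7 had 0 reads, and MUC16, CDH1, WT1, ESR1 and PAX8 were low and below the filter on low values. PAX8 had 4 reads in A2780 and 48 in A2780-ADR, WT1 had 1 and 20, and ESR1 had 5 and 34. EPCAM had means of 54.6 and 75.3 normalized counts and KRT19 27.7 and 32.6, and neither was called. KRT8 and KRT18 were higher in A2780-ADR, with means of 9071 against 79.1 and 4072 against 130 normalized counts. The blood markers PTPRC and CD14 and the endothelial markers PECAM1, VWF and CDH5 had means of at most 2.88 normalized counts in either line, with CD3E and HBB at 0 reads, although KDR (means of 0.340 and 27.1) was called higher in A2780-ADR. The part of these markers in the carrier results was not tested.

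Values are counts normalized by the authors, and a gene was called higher or lower in A2780-ADR when limma gave an adjusted p under 0.05 over all genes tested and the fold change on the log2(normalized count + 1) scale was above 2. Genes entered the test when their normalized counts averaged 10 or more across the 6 samples, which 36 of the 60 carrier-family genes reached. Of these 36, 22 were called (61.1%), 7 higher and 15 lower in A2780-ADR, beside 27.6% of all 17005 genes tested (13.2% higher and 14.4% lower). At any fold change 33 of the 36 had an adjusted p under 0.05, beside 71.8% of all genes tested: 11 of these changed by less than 2-fold. SLC1A3, SLC6A8 and SLC7A6OS did not reach that p. The values of the lines did not overlap in 33 of the 36, beside 74.6% of all genes tested. The median log2 fold change was -0.41 over the 36, genes with almost no reads in a line included, and -0.01 over all genes tested. Because 6 of the 36 passed the filter through the line in which they were high (SLC3A1, SLC38A5, SLC6A4, SLC6A14, SLC38A11 and SLC7A3), the count was also taken over genes with a mean of at least 10 in both lines: 16 of 30 were then called (53.3%), 5 higher and 11 lower, beside 19.9% of 14997 genes (9.95% higher and 9.96% lower). In bulk RNA of this kind, fewer cells that express a gene and less RNA of it per cell cannot be told apart.

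**Figure D1:**
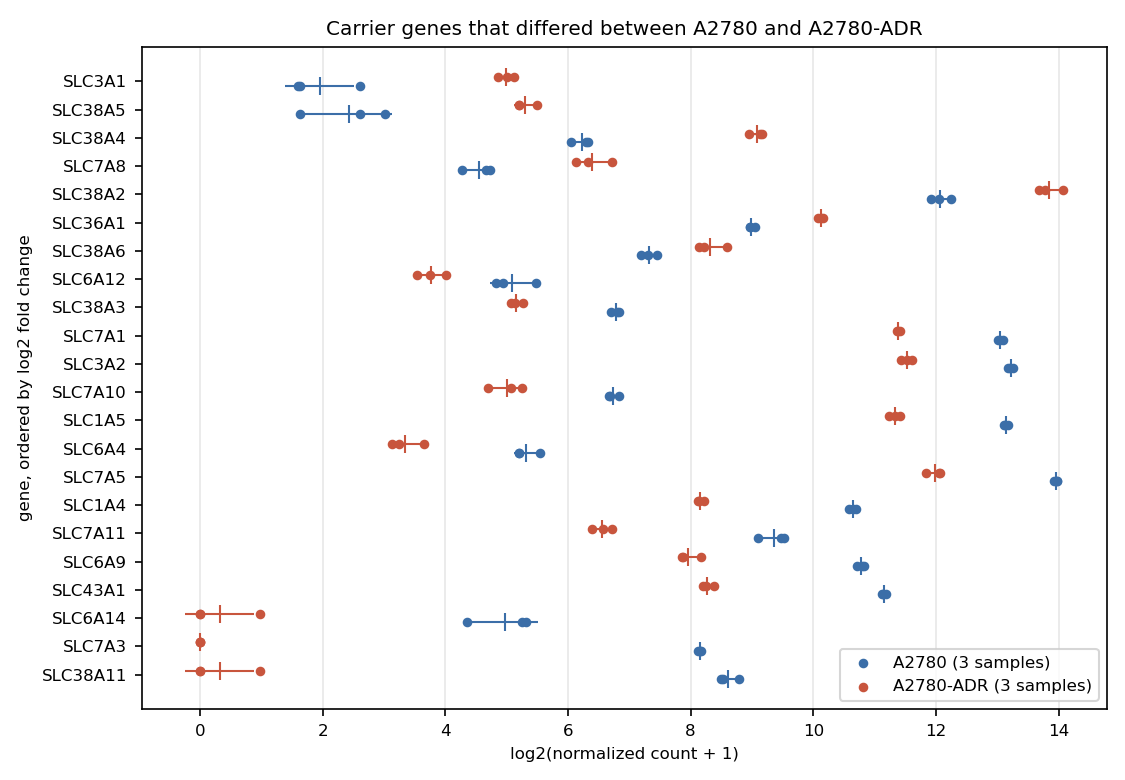
Values of the 22 carrier genes that passed the test, as log2(normalized count + 1) on the horizontal axis, with 1 point for each of the 3 samples of A2780 (blue) and A2780-ADR (red), a tick at the mean and a bar of 1 SD. Genes are ordered by log2 fold change, and SLC7A3 is at 0 in every A2780-ADR sample. The lines do not overlap in any of the 22, which were picked by the test on these same values.

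SLC3A2 and 3 of the 6 light chains tested, SLC7A5, SLC7A10 and SLC7A11, were lower in A2780-ADR, while SLC7A8 was higher and SLC7A6 and SLC7A7 stayed within 2-fold. Of all genes tested, 14.4% were called lower and 13.2% higher. SLC7A5 (LAT1), which exchanges glutamine for leucine and other large neutral amino acids, had 16145, 16153 and 15597 normalized counts in A2780 and 4224, 4298 and 3656 in A2780-ADR. It fell 3.93-fold by the means (log2 fold change -1.98 ± 0.06 SE, limma adjusted p = 4.02e-11). Its heavy chain SLC3A2, which carries it to the membrane, stood at 9806, 9509 and 9295 in A2780 and at 2968, 3112 and 2759 in A2780-ADR, a 3.24-fold fall (log2 -1.70 ± 0.05 SE, adjusted p = 4.41e-11). In both genes every A2780-ADR sample lay far below the lowest A2780 sample. SLC7A11 (xCT), which imports cystine for glutathione in exchange for glutamate, went from 546, 733 and 709 to 94.6, 82.8 and 104 normalized counts. This was the largest fall among the light chains tested, 7.07-fold (log2 -2.80 ± 0.13 SE, adjusted p = 1.93e-09), although its A2780 values were the more scattered. SLC7A11-AS1, an RNA from the opposite strand, fell with it, from a mean of 27.2 to 2.56. The strand setting of the counting is not stated, and reads from such a pair cannot be assigned with certainty. SLC7A10, an exchanger of small neutral amino acids such as serine, had 113, 102 and 101 in A2780 and 36.9, 32.8 and 25.0 in A2780-ADR (log2 -1.72 ± 0.18 SE, adjusted p = 3.71e-06).

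SLC7A8 (LAT2), the other leucine exchanger, moved the other way at a far lower level. It had 18.3, 25.5 and 24.3 normalized counts in A2780 and 79.4, 69.4 and 104 in A2780-ADR, 3.71-fold more (log2 1.84 ± 0.21 SE, adjusted p = 8.55e-06). The exchangers of cationic for neutral amino acids stayed within 2-fold: SLC7A7 changed by -0.87 and SLC7A6 by -0.17 on the log2 scale. SLC3A1, the heavy chain that works with SLC7A9 in kidney and gut, had 5.09, 2.04 and 2.11 in A2780 and 31.2, 27.9 and 33.7 in A2780-ADR, a log2 rise of 3.04 ± 0.34 SE (adjusted p = 6.11e-06). It rested on 9 reads in A2780 and 97 in A2780-ADR. Its partner SLC7A9 had 12 and 2 reads, below the filter. SLC3A1 overlaps PREPL on the opposite strand, which was itself higher in A2780-ADR (a mean of 4281 against 1904), and how far reads of PREPL stand in the count of SLC3A1 was not tested.

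Levels of different genes were set side by side per kilobase of exon (union of the annotated exons). Summed over SLC7A5, SLC7A6, SLC7A7, SLC7A8, SLC7A10 and SLC7A11, the light chains that pair with SLC3A2 held 1.99 ± 0.04 times the level per kb of SLC3A2 in A2780 and 1.81 ± 0.04 times in A2780-ADR (SD, n = 3). With the length of the longest protein-coding transcript this ratio was 0.920 ± 0.019 and 0.866 ± 0.017, so which of the chains was the more abundant turned with the length, and the fall of the ratio did not. SLC7A5 alone made up 91.9% ± 0.37 of the light chain level in A2780 and 83.2% ± 1.31 in A2780-ADR, and its ratio to SLC3A2 went from 1.83 ± 0.03 to 1.50 ± 0.05, with no overlap between the lines. With the other length these were 89.1% and 77.8% of the light chains, and ratios of 0.820 and 0.674.

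Both neutral exchangers of the SLC1 family were lower in A2780-ADR, while the glutamate carriers tested, SLC1A1 and SLC1A3, stayed within 2-fold. SLC1A5 (ASCT2), the main glutamine exchanger of many tumours, had 9212, 8869.6 and 8944 normalized counts in A2780 and 2715, 2574 and 2414 in A2780-ADR. The fall was 3.51-fold (log2 -1.81 ± 0.05 SE, adjusted p = 2.17e-11). SLC1A4 (ASCT1), which exchanges alanine, serine, cysteine and threonine, went from 1651, 1612 and 1535 to 278, 279 and 296, a 5.62-fold fall (log2 -2.49 ± 0.06 SE, adjusted p = 1.37e-11). Samples of a line lay within a narrow band in both genes. SLC1A1, the glutamate and cysteine carrier EAAT3, had 296, 276 and 254 in A2780 and 220.4, 202 and 234 in A2780-ADR, which is lower by -0.33 on the log2 scale and within 2-fold (adjusted p = 0.0112). SLC1A3, the glutamate carrier EAAT1 of glia, ranged from 73.9 to 110.0 in A2780 and from 83.2 to 89.5 in A2780-ADR. Its lines overlapped, and the interval of the log2 difference ran from -0.42 to 0.30. Of the other glutamate carriers, SLC1A2 had 1 read in A2780 and 0 in A2780-ADR, SLC1A6 had 13 and 4, and SLC1A7 had 5 and 13.

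The carriers of arginine and lysine went in different directions. SLC7A1 (CAT1), the widely expressed arginine carrier, had 8750.1, 8413 and 8302 normalized counts in A2780 and 2646, 2722 and 2654 in A2780-ADR, a 3.17-fold fall (log2 -1.67 ± 0.04 SE, adjusted p = 1.12e-11). SLC7A2 (CAT2) had 5023, 4896 and 4793 in A2780 and 7779, 7600.0 and 8527 in A2780-ADR, 1.62-fold more, which did not pass the fold threshold (log2 0.70 ± 0.05 SE, adjusted p = 1.06e-07). The order of the pair was therefore opposite in the lines: per kb of exon, SLC7A2 was at 0.562 ± 0.004 of SLC7A1 in A2780 and at 2.90 ± 0.21 times SLC7A1 in A2780-ADR. SLC7A3 (CAT3), a cationic carrier best known from brain, had 288, 277 and 285 in A2780 and 0 in every A2780-ADR sample. With 825 reads against 0, its level was at least 296-fold lower in A2780-ADR, taking 3 reads over the 3 samples as the limit that a count of 0 allows. SLC7A4 and SLC7A14, relatives with no agreed substrate at the cell surface, were below the filter with at most 7 reads each over the 6 samples.

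**Figure D2:**
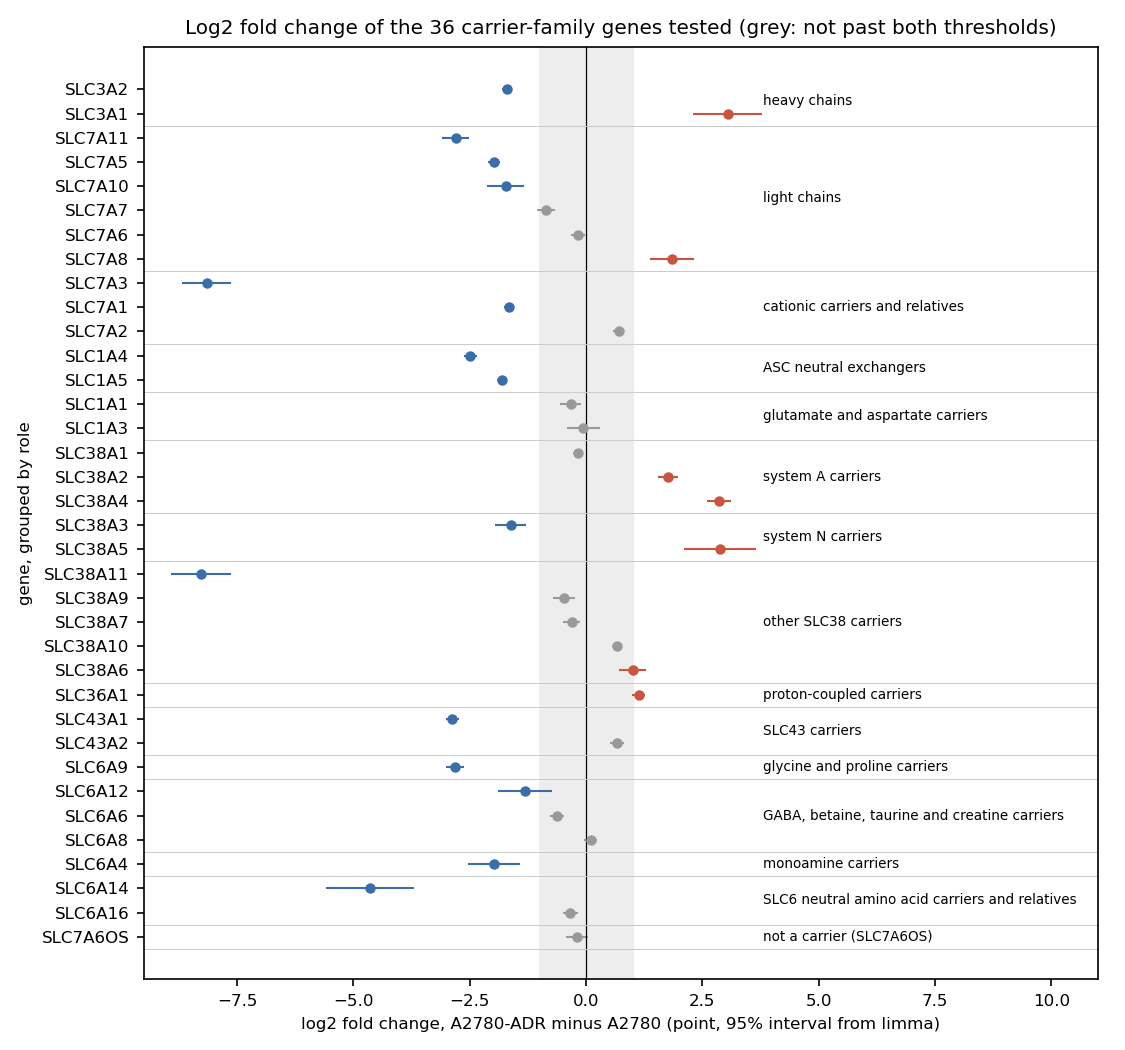
Log2 fold change (A2780-ADR minus A2780, horizontal axis) of the 36 carrier-family genes tested, grouped by role, with the 95% interval from limma as a bar. Red and blue points passed both thresholds (7 higher, 15 lower), grey points did not, and the shaded band marks changes within 2-fold.

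Among the sodium-coupled carriers of the SLC38 family, 4 of the 10 tested were higher and 2 lower, beside 13.2% and 14.4% of all genes tested. SLC38A5 and SLC38A11 among them passed the filter through the line in which they were high. SLC38A2 (SNAT2), a system A carrier of alanine, serine and glutamine that cells make more of when amino acids are short, had 3869, 4259.6 and 4871 normalized counts in A2780. It had 14018, 13085 and 17255 in A2780-ADR, 3.41-fold more (log2 1.77 ± 0.10 SE, adjusted p = 1.08e-08). The lowest A2780-ADR sample lay well above the highest A2780 sample. SLC38A4 (SNAT4), a system A carrier known from liver, went from 65.1, 77.4 and 79.2 to 494, 561 and 571, 7.33-fold more (log2 2.86 ± 0.11 SE, adjusted p = 5.13e-10). The remaining system A carrier, SLC38A1 (SNAT1), had 9758, 10172 and 9968 in A2780 and 8777, 8350.5 and 9263 in A2780-ADR, a difference of -0.18 on the log2 scale (adjusted p = 0.00412) that stayed within 2-fold. Per kb of exon SLC38A2 stood at 0.659 ± 0.073 of SLC38A1 in A2780 and at 2.54 ± 0.25 times SLC38A1 in A2780-ADR.

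The system N carriers, which move glutamine, histidine and asparagine in exchange for protons, were opposite to each other. SLC38A3 (SNAT3) had 113, 110.0 and 103 normalized counts in A2780 and 34.0, 32.8 and 37.5 in A2780-ADR (log2 -1.62 ± 0.15 SE, adjusted p = 1.43e-06). SLC38A5 (SNAT5) had 7.12, 5.09 and 2.11 in A2780 and 35.9, 44.3 and 35.6 in A2780-ADR (log2 2.88 ± 0.36 SE, adjusted p = 1.44e-05), on 14 and 121 reads. Both were far below SLC38A1 and SLC38A2 in either line.

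SLC38A11, a family member whose substrate is not settled, was nearly absent from A2780-ADR. It stood at 367, 362 and 442 normalized counts in A2780 and at 0, 0.963 and 0 in A2780-ADR. The 1135 reads of A2780 against 1 read gave a ratio of 1222 with a 95% counting interval from 219 to 48293. AC019197.1, an RNA antisense to it, went the same way, from a mean of 381 to 4.46 normalized counts. SLC38A6 had 157, 146 and 174 in A2780 and 296, 280.3 and 387 in A2780-ADR. Its log2 fold change of 1.0 ± 0.13 SE (adjusted p = 2.46e-05) lay on the threshold, and it fell to 0.98 with a pseudocount of 5, to 0.99 with TMM scaling or without A2780 replicate 1, to 0.94 without A2780 replicate 2 and to 0.86 without A2780-ADR replicate 3, each of which ended the call.

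Among carriers known from lysosomes SLC36A1 rose and the others stayed within 2-fold. SLC36A1 (PAT1), which couples small amino acids such as alanine, glycine and proline to protons, had 528, 500.1 and 497 normalized counts in A2780 and 1145, 1120.4 and 1075 in A2780-ADR. It was 2.19-fold higher (log2 1.13 ± 0.06 SE, adjusted p = 9e-09), and the other SLC36 genes had at most 6 reads each over the 6 samples. SLC38A9, the lysosomal arginine sensor upstream of mTORC1, had 262, 328 and 331 in A2780 and 228, 204 and 227 in A2780-ADR. This was a difference of -0.48 on the log2 scale (adjusted p = 0.0022), within 2-fold. SLC38A7, which exports glutamine from lysosomes, differed by -0.31. SLC38A10, whose place in the cell is less settled, had 2771, 2646 and 2661 in A2780 and 4369, 4477 and 3990.1 in A2780-ADR, a log2 difference of 0.67 within 2-fold (adjusted p = 2.38e-07).

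The facilitators of the SLC43 family, which let large neutral amino acids pass down their gradient, also split. SLC43A1 (LAT3) had 2317, 2238 and 2259 normalized counts in A2780 and 331, 292 and 302 in A2780-ADR, a 7.37-fold fall (log2 -2.88 ± 0.06 SE, adjusted p = 3.94e-12). SLC43A2 (LAT4) had 424, 471 and 468 in A2780 and 728, 725 and 713 in A2780-ADR, a log2 difference of 0.67 ± 0.07 SE that stayed within 2-fold (adjusted p = 3.07e-06). In A2780-ADR the normalized count of SLC43A2 was the higher, but per kb of exon SLC43A1 stayed above it (87.3 ± 5.74 against 68.1 ± 0.76). With the longest protein-coding transcript as length the order was the same (119 against 88.8). SLC43A3, a nucleobase carrier, had 7 and 2 reads.

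In the SLC6 family, which holds the sodium- and chloride-coupled carriers of transmitters, 4 of the 7 genes tested were lower in A2780-ADR and 0 higher, beside 14.4% and 13.2% of all genes tested. SLC6A4 and SLC6A14 among the 4 passed the filter through A2780 alone. SLC6A9 (GLYT1), which takes up glycine, had 1826, 1769 and 1673 normalized counts in A2780 and 286, 233 and 231 in A2780-ADR. It fell 7.03-fold (log2 -2.81 ± 0.09 SE, adjusted p = 5.62e-11). Per kb of exon it led the SLC6 genes in A2780 (340.4 ± 15) with samples that overlapped those of SLC6A8 (315 ± 9.20), and lay under SLC6A8, SLC6A6 and SLC6A16 in A2780-ADR (48.4 ± 6.0). SLC6A14, a carrier of neutral and cationic amino acids with a wide range of substrates, had 19.3, 38.7 and 36.9 in A2780 and 0, 0.963 and 0 in A2780-ADR. Its 92 reads against 1 gave a ratio of 99.0 with a 95% counting interval from 17.3 to 3953. SLC6A4, the serotonin carrier, had 35.6, 45.8 and 35.9 in A2780 and 8.51, 7.71 and 11.5 in A2780-ADR (log2 -1.98 ± 0.25 SE, adjusted p = 2.04e-05). SLC6A12, which carries betaine and GABA, had 43.7, 27.5 and 29.6 in A2780 and 15.1, 10.6 and 12.5 in A2780-ADR (log2 -1.32 ± 0.26 SE, adjusted p = 0.000741). The last 3 genes were at low levels even where they were higher.

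The SLC6 genes with the highest levels in A2780-ADR differed less. SLC6A8, which carries creatine, had 1787, 1695 and 1706 normalized counts in A2780 and 1925, 1937 and 1692 in A2780-ADR. Its lines overlapped, and the interval of the log2 difference ran from -0.04 to 0.23 (adjusted p = 0.178). Reads of SLC6A8 can also come from its near copy SLC6A10P, a pseudogene that was higher in A2780-ADR, with means of 81.2 and 223. SLC6A6, the taurine carrier, had 1819, 1882 and 1671 in A2780 and 1167, 1082 and 1243 in A2780-ADR, a log2 difference of -0.62 (adjusted p = 3.99e-06). SLC6A16, whose substrate is not settled, had 434, 416 and 438 in A2780 and 339.6, 328 and 353 in A2780-ADR, a log2 difference of -0.34 (adjusted p = 0.00187). Both were lower in every A2780-ADR sample, within 2-fold.

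The remaining 24 genes were below the filter and outside the test. They included SLC6A2 and SLC6A3, the carriers of noradrenaline and dopamine, SLC6A11, which carries GABA in brain, and SLC6A5, the glycine carrier of inhibitory neurons. SLC6A2, SLC6A11, SLC7A13 and SLC36A2 had 0 reads in all 6 samples, and the highest normalized count of the 24 in any sample was 22.4. That value belonged to SLC6A20, a proline carrier, which had 49 reads in A2780 and 4 in A2780-ADR. SLC6A13, a GABA and taurine carrier that lies beside SLC6A12, had 12 reads in A2780 and 36 in A2780-ADR. With no filter on low values, every gene with a read entered the test. Then 28 of 56 carrier-family genes were called (10 higher and 18 lower), beside 7007 of 34588 genes in all. The 22 above were among the 28, so 6 of these 24 passed on few reads: SLC6A17, SLC6A18 and SLC6A20 lower, SLC6A5, SLC6A13 and SLC38A8 higher. A gene at 0 reads may still be expressed below 3 reads per library.

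The lines also differed in which carriers led. In A2780 the level per kb of exon was highest for SLC7A5 (3365 ± 67.2), followed by SLC1A5 (2704 ± 54.1), SLC3A2 (1842 ± 49.5), SLC7A1 (1104 ± 30.3) and SLC38A1 (995 ± 20.7; SD, n = 3), with no overlap between neighbours in this order. SLC38A2 came next (656 ± 76.5), and its samples overlapped those of SLC43A1 (643 ± 11.7) and SLC7A2 (620.4 ± 14.5). In A2780-ADR the highest level per kb was that of SLC38A2 (2239.7 ± 332), followed by SLC7A2 (1008 ± 62.2), SLC38A1 (878 ± 45.6), SLC7A5 (855 ± 74.0), SLC1A5 (771 ± 45.3) and SLC3A2 (569 ± 34.2). The samples of SLC38A2 and SLC7A2 lay apart from those below them, those of SLC7A5 overlapped both SLC38A1 and SLC1A5, and those of SLC3A2 overlapped SLC38A10 (555 ± 33.1). When the length of the longest protein-coding transcript was used, SLC3A2 came first (4292 against 1842) and SLC7A5 second in A2780. In A2780-ADR SLC38A2 remained first, SLC3A2 rose from rank 6 to 2 (1326 against 569), SLC38A1 was at rank 3, SLC7A2 at 4, SLC38A10 at 5, SLC7A5 at 6 and SLC1A5 at 7.

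**Figure D3:**
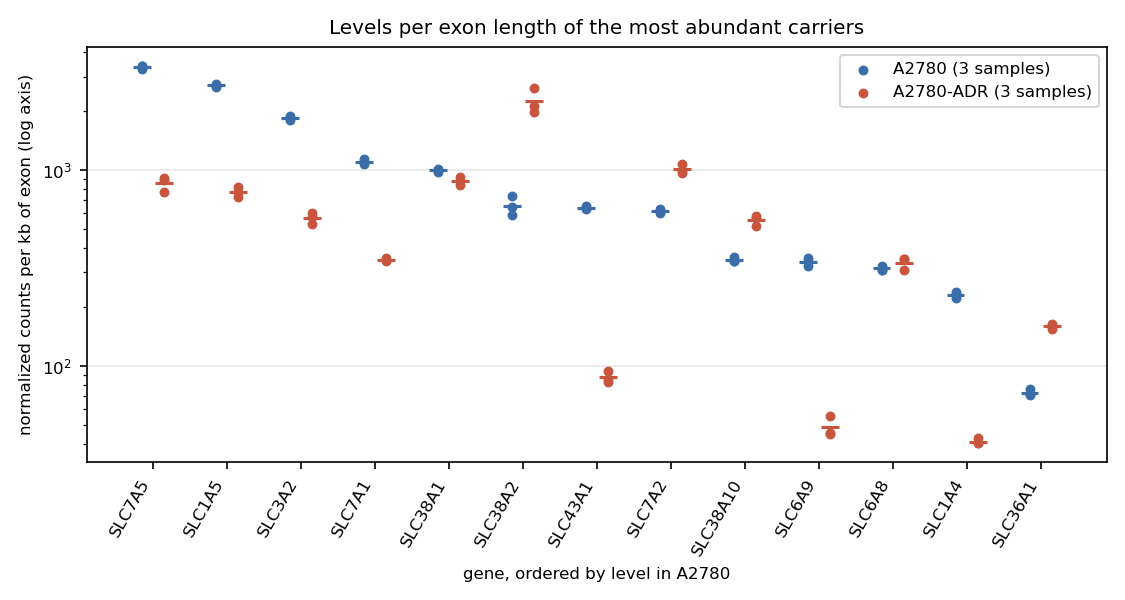
Normalized counts per kb of exon (vertical log axis) of the carriers among the most abundant in either line, ordered by their level in A2780. Each point is 1 of 3 samples and each dash a mean; SLC7A5 leads in A2780 (3365) and SLC38A2 in A2780-ADR (2240).

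Summed over the 60 genes, the carriers held 81025.7, 80648 and 79627 normalized counts in A2780 and 57268, 55816 and 60126 in A2780-ADR, a ratio of the means of 0.718. By family the ratio was 0.288 for SLC1, 0.312 for SLC3, 0.378 for SLC43, 0.504 for SLC7, 0.624 for SLC6, 1.57 for SLC38 and 2.19 for SLC36. These sums are not corrected for length and follow the genes with the most reads in each family: SLC1A5, SLC3A2, SLC43A1, SLC7A5, SLC6A6 or SLC6A8, SLC38A1 or SLC38A2, and SLC36A1. Replicates varied little, with a median coefficient of variation over the 36 genes of 6.14% in A2780 and 7.11% in A2780-ADR.

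Genes of the pathways that the carriers serve were read from 7 lists, of which some share a gene. The lists were also chosen with earlier results of these data known. In the list of the amino acid response, which holds the sensing arm (EIF2AK4, GCN1 and EIF2S1), ATF4 and genes known to follow it, 16 of 21 genes were lower and 0 higher in A2780-ADR, with a median log2 fold change of -1.72 beside -0.01 for all genes tested and 27.6% of all genes called. ATF4 itself had 24104, 23089 and 22356 normalized counts in A2780 and 8454, 8372 and 7561 in A2780-ADR (log2 -1.51 ± 0.05 SE, adjusted p = 1.32e-10). The largest falls of the list were those of STC2, a secreted glycoprotein (log2 -5.25), CHAC1, which breaks down glutathione (-4.72), and ATF3, a transcription factor (-4.35). EIF2AK4, the kinase that senses uncharged tRNA, and EIF2S1, its substrate, were not called, with log2 differences of 0.03 and 0.53. GCN1 was lower in every A2780-ADR sample, within 2-fold (-0.76). SLC7A5, SLC3A2, SLC7A11, SLC1A4, SLC1A5, SLC7A1 and SLC6A9 fell in the same samples, while SLC38A2 rose.

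**Figure D4:**
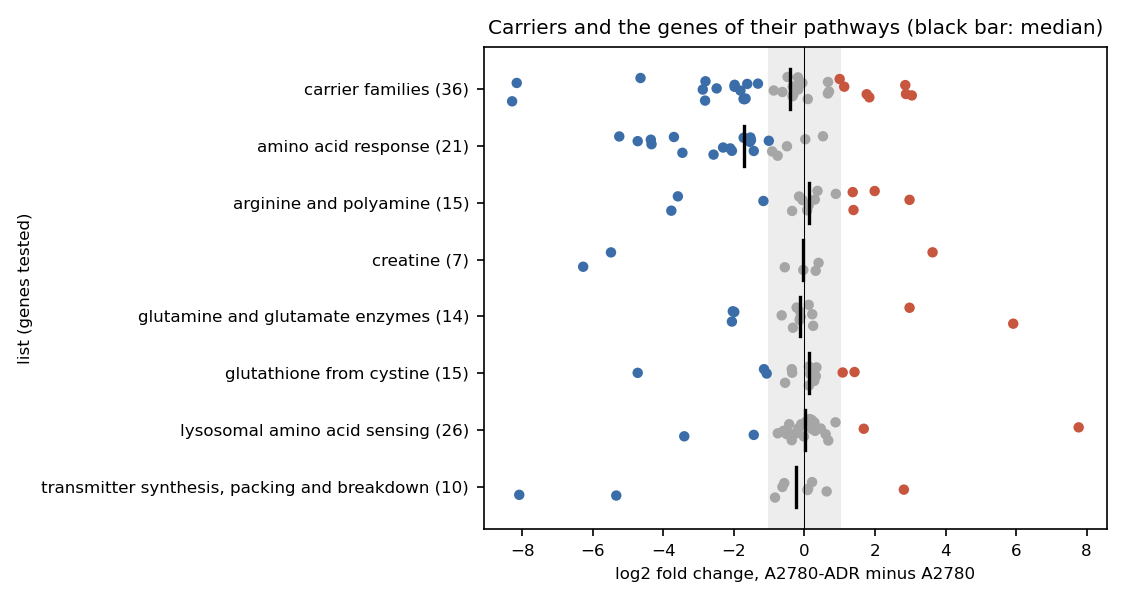
Log2 fold change (A2780-ADR minus A2780, horizontal axis) of the carrier-family genes and of the genes tested in 7 pathway lists, with the number tested in brackets, 1 point for each gene and a black bar at the median. Red and blue points passed both thresholds; the amino acid response list has its median at -1.72 and 16 blue points of 21, while the other lists have medians near 0.

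In the glutamine and glutamate list 2 of 14 genes were higher and 3 lower (35.7% called), near the 27.6% of all genes. GLUL, which makes glutamine from glutamate, had 38.7, 39.7 and 32.7 normalized counts in A2780 and 2314, 2248 and 2316 in A2780-ADR (log2 5.92 ± 0.10 SE, adjusted p = 3.01e-13), whereas the glutamine carrier SLC1A5 fell and SLC38A2 rose. GLS2, a glutaminase, was also higher (log2 2.98), and ASNS (-2.05), GLUD2 (-2.03) and GPT2 (-1.99), which use glutamine or glutamate, were lower. GLS2 passed the filter through A2780-ADR alone. Among genes of glutathione made from cystine 2 of 15 were higher and 3 lower (33.3% called, also near 27.6%): CHAC2 (1.42), GGT7 (1.09), CHAC1 (-4.72), CBS (-1.14) and GCLC (-1.07). The cystine carrier SLC7A11 fell further than CBS and GCLC on the log2 scale.

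The arginine and polyamine list had 4 of 15 genes higher and 3 lower (46.7% called, beside 27.6% of all genes). ARG2, which splits arginine (log2 2.98), SAT1, which acetylates polyamines (1.99), and OAT, which turns ornithine over (1.39), rose. ASS1, which rebuilds arginine from citrulline (-3.77), AZIN2, a regulator of polyamine synthesis (-3.58), and NOS2, a nitric oxide synthase (-1.16), fell. NOS2 had 51 reads in A2780 and 23 in A2780-ADR and passed the filter through A2780 alone. NOS3, another nitric oxide synthase, rose (1.37), from a mean of 228 normalized counts to 590. Of the creatine genes 3 of 7 were called (42.9%, beside 27.6% of all genes): CKM was higher (3.63), and lower were GATM (-6.27), which starts creatine synthesis, and CKB (-5.48), a creatine kinase, while the creatine carrier SLC6A8 overlapped between the lines. CKM and GATM passed the filter only through the line in which they were high.

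Of the genes of lysosomal amino acid sensing around SLC38A9, 2 of 26 were higher and 2 lower, or 15.4% beside 27.6% of all genes tested. They were SESN3 (log2 7.77) and LAMTOR5 (1.68), and RRAGD (-3.40) and SESN2 (-1.43). SESN3 passed the filter through A2780-ADR alone. In the list of transmitter synthesis, packing and breakdown, 10 of 20 genes could be tested, with 1 higher and 2 lower (30%, near 27.6%). TPH2, which makes serotonin in neurons, had 647, 577 and 590.1 normalized counts in A2780 and 0.946, 0.963 and 1.92 in A2780-ADR. GAD1, which makes GABA, was also lower (log2 -5.33), and MAOB, which breaks amines down, was higher (2.82). TPH2, GAD1 and MAOB, all the called genes of this list, passed the filter only through the line in which they were high. The serotonin carrier SLC6A4 and the GABA and betaine carrier SLC6A12 were lower in the same line as TPH2 and GAD1.

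Carriers were then set beside the nearest tested protein-coding genes on each side. The 22 called carriers had 40 different neighbours outside the families, of which 9 were called (22.5%, beside 27.6% of all genes tested), 8 of them in the direction of the carrier. Around SLC38A11 (chr2:164896186-164955525) the neighbours COBLL1 (log2 -1.34) and SCN3A (-3.85) and, beyond them, the sodium channel gene SCN2A (-3.06) and CSRNP3 (-2.11) were lower too. Beyond COBLL1 the genes GRB14 (2.66), FIGN (1.14) and GCA (1.89) were higher. SLC43A1 (chr11:57484534-57515786) lay beside RTN4RL2 (-4.25), while TIMM10 on its other side differed by 0.48. Beyond RTN4RL2, P2RX3 (-6.53) and TNKS1BP1 (-1.46) were lower too, and SSRP1 between them differed by -0.48. Beyond TIMM10, SMTNL1 (-4.20), UBE2L6 (-3.63) and SERPING1 (-3.09) were also lower. Around SLC3A1 (chr2:44275458-44321494) PREPL was higher (1.16). The other called neighbours in the same direction were RARRES3 (-6.63, 648 kb from SLC3A2), CEBPA (-1.07, 74.1 kb from SLC7A10), PCDH18 (-5.96, 632 kb from SLC7A11) and CT83 (-7.76, 0.224 kb from SLC6A14).

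On chromosome 12 the genes of the 3 system A carriers follow each other, and they did not move as a block. SLC38A1 (chr12:46183063-46270017) differed by -0.18 on the log2 scale, SLC38A2 (chr12:46358189-46372867) rose by 1.77 and SLC38A4 (chr12:46764761-46832408) by 2.86, and the next gene, AMIGO2, fell by 4.27. The coordinates are those of GENCODE on GRCh38. The carriers SLC1A4, SLC1A5, SLC7A1, SLC7A5, SLC6A9 and SLC7A3, all lower in A2780-ADR, had no called neighbour.

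**Figure D5:**
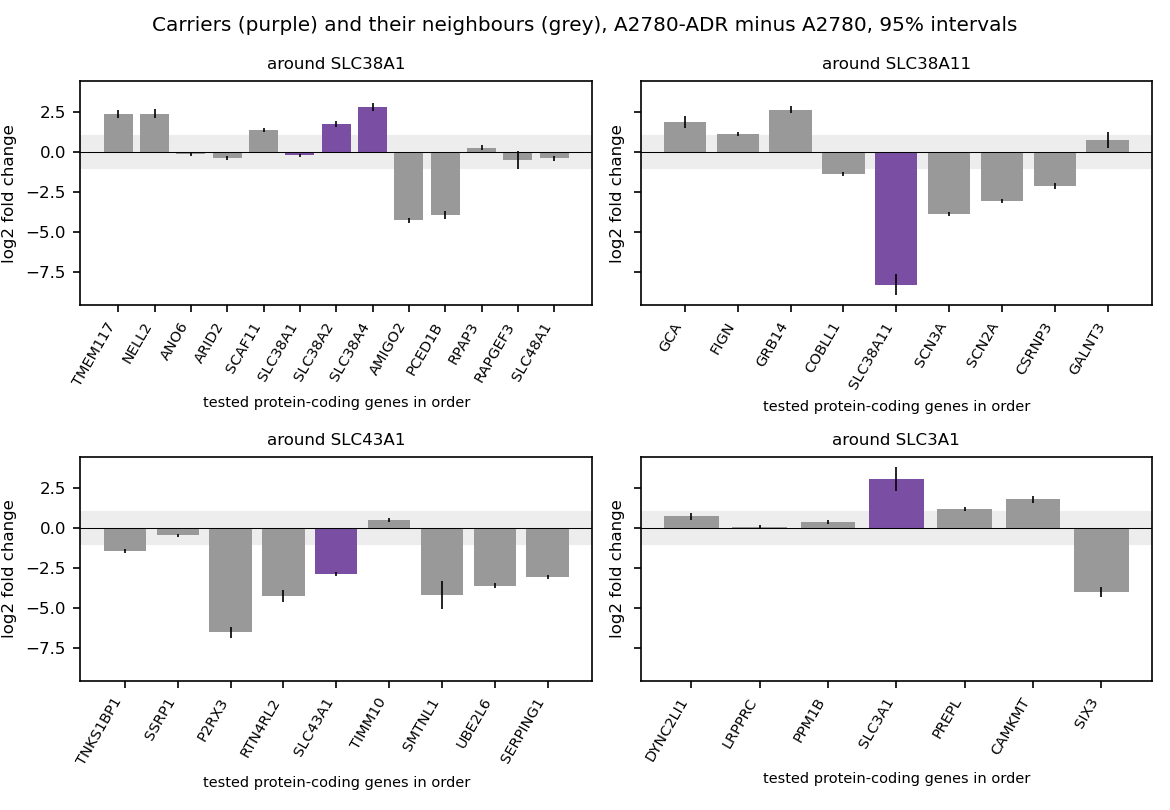
Log2 fold change (A2780-ADR minus A2780, vertical axis) of tested protein-coding genes in chromosomal order around SLC38A1, SLC38A11, SLC43A1 and SLC3A1, with carriers in purple, other genes in grey and the 95% interval from limma as a line. SLC38A11 (-8.28) stands between COBLL1 (-1.34) and SCN3A (-3.85), which were lower, with GRB14 (2.66) beyond COBLL1 higher, and SLC38A2 (1.77) and SLC38A4 (2.86) stand between SLC38A1 (-0.18) and AMIGO2 (-4.27).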

How the data were processed

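RNA of 3 A2780 and 3 A2780-ADR samples was sequenced from TruSeq Stranded mRNA libraries. The deposited values are a signal: gene counts that the authors normalized with DESeq. STAR, HTSeq and GRCh38 are named in the submitters' processing notes, while the sources used here give no versions, no annotation release and no strand setting. Whole reads could be recovered, with 100% of the nonzero values within 0.01 of a whole number of reads, at 27775745 to 30513366 reads per sample. Counting intervals (95%) and limits at 0 reads (3 reads) cover counting error only.

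Groups follow the cell line given in the labels. Gene names, coordinates and exon lengths came from GENCODE release 29, which matched 57447 of 58051 IDs. Genes with a mean of at least 10 (17005) were tested as log2(normalized count + 1) in limma 3.58.1 (variance trend) in R 4.3.3 and Benjamini-Hochberg adjustment over all of them. The test was checked on simulated data with planted changes beyond 2-fold and a fixed spread, which says nothing on changes near the threshold. The carriers and lists were chosen with earlier results of these data known. Any carrier could be named, with sample values for those called, for the most abundant of each role and for SLC38A9. In each list up to 3 called genes per direction were named, and neighbours where both were called. Naming of EIF2AK4, GCN1, EIF2S1, NOS3, TIMM10, SCN2A, CSRNP3, GRB14, FIGN and GCA followed after their values were seen. The same holds for P2RX3, TNKS1BP1, SSRP1, SMTNL1, UBE2L6, SERPING1 and the antisense and pseudogene rows. Alternatives were pseudocounts, filters, TMM (a normalization by trimmed means), equal totals, edgeR 4.0.16 and DESeq2 1.42.0 on recovered reads, a replicate block, each sample left out, other fold thresholds and another gene length. Protein sequences were not used here, and a few genes of the families and lists are not reported here.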

Additional observations from a re-analysis of the deposited data

How the results depend on the processing

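Carriers called numbered 21 to 22 when any sample was left out, 22 with edgeR and DESeq2 on the recovered reads, and 22 with the replicate number as a block (4690 of all genes, beside 4688). Replicate numbers do not pair the lines (correlations of deviations 0.004, -0.016 and 0.077). Other fold thresholds moved the counts. Without one, 12210 of all genes, 23 carriers lower and 88 pathway genes were called. Above 4-fold there were 2254 genes (13.3% of those tested), 10 carriers (27.8% of those tested, 3 higher and 7 lower) and 24 pathway genes. With the threshold of 2 there were 4688 genes, 22 carriers (7 higher and 15 lower) and 40 pathway genes. Without a filter 28 of the 56 carrier-family genes with a read were called, beside 7007 of all 34588 genes with a read. A filter at a mean of 50 left 2955 of all genes called, which follows from fewer genes tested. The log2 fold change of SLC1A3 (-0.06) ranged from -0.19 to 0.10 with samples left out and changed sign without A2780 replicate 2 (0.0954), and the cause was not tested. SLC38A6 lost its call under 5 settings given above. Among the alternative values for single carriers, 529 kept their direction and side of the threshold, 5 lost the call and 1 changed sign. With the longest transcript as length, SLC7A5 stood at 3519 per kb in A2780 and SLC38A2 at 3025 in A2780-ADR, beside 3365 and 2240, and SLC3A2 moved further, from 1842 to 4292 and from 569 to 1326. Scalings moved the median log2 fold change by -0.01 (TMM) and 0.04 (equal totals). Below about 10 normalized counts the depth limits what can be tested.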

Other observations

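Besides the 60 protein-coding genes, 8 rows of the table carried one of the prefixes without coding for protein. SLC7A5P1, a pseudogene copy of SLC7A5, had 25.4, 15.3 and 31.7 normalized counts in A2780 and 9.46, 21.2 and 14.4 in A2780-ADR (log2 fold change -0.66, limma adjusted p = 0.106), and its lines overlapped. It was far below SLC7A5 in every sample. SLC6A21P had at most 4.07 normalized counts in any sample. SLC6A6P1, SLC7A15P and SLC7A5P2 had 0 reads.

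Of the fibroblast markers, COL3A1 was high in both lines, with means of 26256 and 32131 normalized counts. COL1A1 (log2 3.11) and COL1A2 (3.26) were higher in A2780-ADR, and DCN (-2.41) and PDGFRA (-1.32) were lower. Of the nerve and glia markers, MAP2 (means of 485 and 506) and SYP (393 and 333) were not called, and MBP was higher in A2780-ADR (1.59).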
